A study of Mus musculus with 19 samples.

Results

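The ligands and receptors of axon guidance were followed in RNA sequencing libraries from mouse cornea and conjunctiva, with calorie restriction (CR) set against ad libitum feeding (AL). Members were all genes whose symbols belong to the semaphorin (Sema3 to Sema7), plexin, neuropilin, ephrin, Eph receptor, Slit, Robo, netrin and UNC5 families, which gave 69 of the 24552 symbols in the tables. One of them, *Plxna4os1*, is an antisense RNA at the plexin A4 gene and not a ligand or receptor.

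These families carry signals between neighbouring cells. A ligand on or from one cell binds a receptor on another and moves its actin skeleton, so that a growing nerve ending, a vessel sprout or an epithelial sheet turns toward or away from the source. Netrins attract through DCC and neogenin and repel through the UNC5 receptors, Slits repel through Robo receptors, semaphorins signal through plexins with neuropilins as co-receptors, and ephrins and Eph receptors signal in both directions at cell contacts. The cornea is densely supplied with sensory nerve endings, and the same families also act in vessels and epithelia.

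The study asked how a restricted diet changes the tissues of the ocular surface and tear gland. For the cornea there were 5 libraries of each diet, and for the conjunctiva 4 of AL and 5 of CR. All mice were C57BL/6 by the labels, and female C57BL/6J by the study's methods. The cornea libraries were made from scraped corneal epithelium and the conjunctiva libraries from excised tissue. By the study's methods, CR mice were fed once a day just before the dark phase. The methods describe cohorts at different sites with different chow, and the library titles do not name the cohort. In the cohort described later, the CR chow held more vitamins and micronutrients than the AL chow. Library titles carry the tags 6M and 50W in all groups, the design text calls the mice young and the series title calls them adult, so the labels alone settle no age. The study's methods put the start of restriction at 6 months of age or somewhat later, and its length at 4 months. Each library is called by its diet and label number. Several tissues were taken from each mouse. The study's figure captions count mice per diet within each tissue, while the labels do not say whether each number is a separate mouse. The p-values measure only the spread between these libraries.

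Cornea libraries held 10354125 to 14681223 counted reads, and conjunctiva libraries 10726717 to 14433441. The deposited values were turned back to normalized counts, that is, reads over the library's size factor. For a gene with 0 reads the limit is 3 reads, or 2.27 to 3.30 normalized counts for cornea libraries and 2.41 to 3.37 for conjunctiva libraries. A member was tested if its mean reached 10 normalized counts, and was called changed at a limma adjusted p under 0.05 with a fold over 1.5. In the cornea *Krt12*, the corneal epithelial keratin, averaged 306448 ± 19768 normalized counts in AL (SD, n = 5), whereas *Cdh5*, an endothelial gene, was between 0 and 3.29 in all libraries. In the conjunctiva *Muc5ac*, the goblet cell mucin, averaged 4515 ± 1014 in AL (SD, n = 4), and it reached at most 43.3 in a cornea library. Cornea CR 7 stood apart, with the lowest *Krt12* (179846) and the highest *Krt4* (10724), a keratin of the conjunctival surface. *Scgb1b2*, a secretoglobin of the tear gland, had 16283, 334, 464, 6.19 and 160 normalized counts in cornea AL 1 to AL 5 and at most 2.19 in any cornea CR library, so that the diets did not overlap.

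*Unc5b*, a receptor through which netrins repel, was the only member to pass the threshold for a change with diet. It was 2.22-fold higher under CR in the cornea, and no other member was called in either tissue. In the cornea 46 of the 69 members were tested, and 1 was called higher (*Unc5b*) and 0 lower, where 0.749% of the 12278 genes tested were called higher and 0.472% lower. Another 10 cornea members had an unadjusted p under 0.05, which made 11 of 46 (23.9%) with 5 higher and 6 lower, beside 18.1% of all genes tested. In the conjunctiva 54 members were tested, and 0 were called by limma, beside 0.223% of 13929 genes called higher and 0.136% lower. There 5 members (9.26%) had an unadjusted p under 0.05, beside 9.4% of all genes. The members left untested for low values numbered 23 in the cornea and 15 in the conjunctiva, of which 3 (*Sema3g*, *Epha8* and *Robo3*) and 2 (*Epha8* and *Epha10*) had no read in any library.

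The member counts were low and 1 library could move them. In the cornea 3 members were called without AL 4 (*Unc5b*, *Unc5c* and *Unc5d*), 4 without CR 1 (these and *Nrp1*), 2 without CR 4 (*Unc5b* and *Unc5c*) and 2 without CR 7 (*Unc5b* and *Robo1*). Calls over all cornea genes moved as well, from 150 with every library in to 536 without AL 4 and 309 without CR 1. *Unc5b* was called with each library left out. The median log2 change of the tested members was −0.04 in the cornea, beside −0.03 over all genes tested, and −0.09 in the conjunctiva, beside −0.02. Of the tested members, 21 were higher and 25 lower under CR in the cornea, and 23 were higher and 31 lower in the conjunctiva. Members with separate AL and CR ranges numbered 2 in the cornea (4.35%, *Unc5b* and *Unc5c*), where 3.97% of genes did so, and 1 in the conjunctiva (1.85%, *Ephb6*), where 3.87% did.

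**Figure D1:**
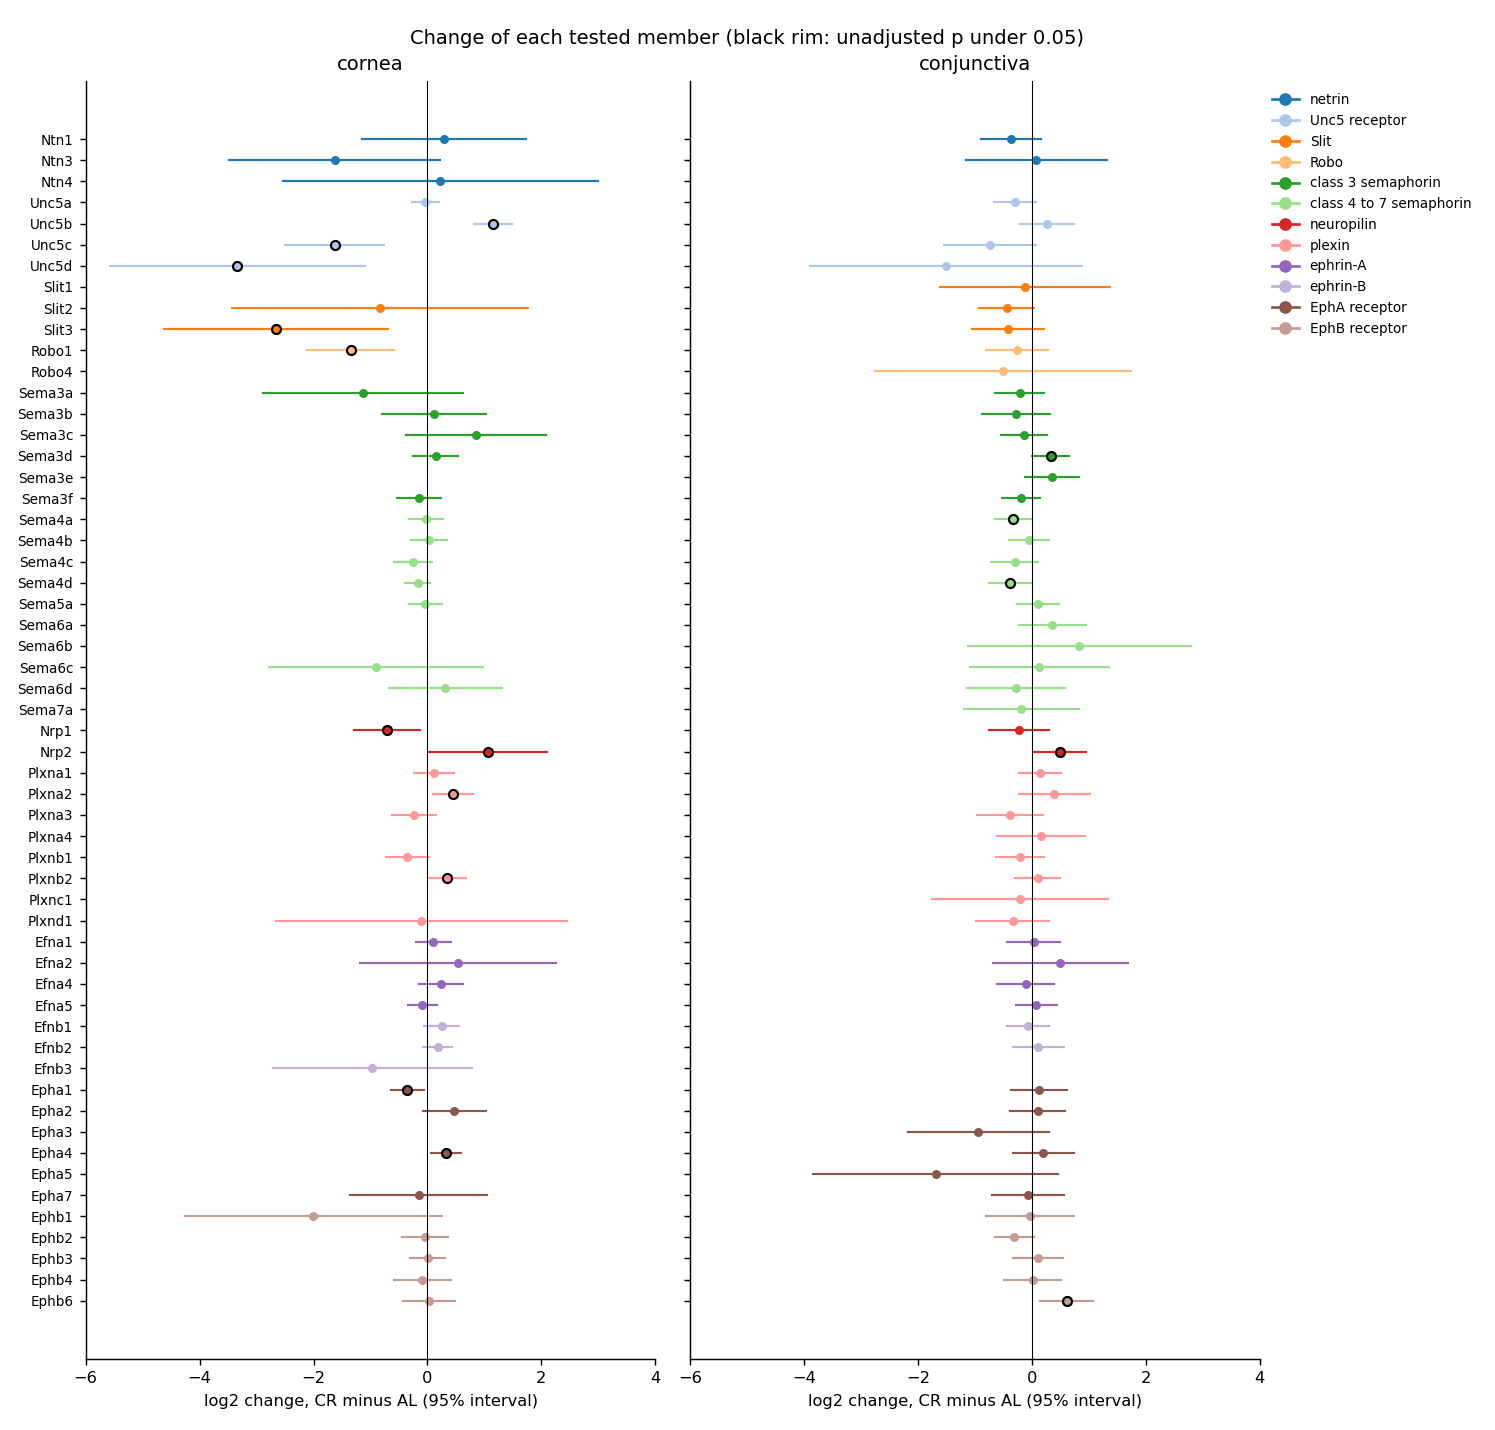
Log2 change under CR (CR minus AL) of every tested member, with its 95% interval from limma, in the cornea (left, 46 members) and the conjunctiva (right, 54 members), colored by family. A black rim marks an unadjusted p under 0.05 (11 and 5 members), and a gap marks a member that was not tested in that tissue. *Unc5b* stands at 1.15 in the cornea with a narrow interval, while the widest intervals belong to members with few reads.

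Of the 4 UNC5 receptors, 3 had an unadjusted p under 0.05 in the cornea and 0 in the conjunctiva by limma. *Unc5b* had 311, 324, 343, 285 and 268 normalized counts in the cornea libraries AL 1 to AL 5. It had 739, 794, 901, 495 and 554 in CR 1, 2, 3, 4 and 7. Every CR library lay above every AL library. The mean went from 306 ± 30.1 to 697 ± 169 (SD, n = 5 each), which on the log2 scale was 1.15 ± 0.16 higher (SE, 95% interval 0.82 to 1.49), and the limma adjusted p was 0.000872.

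*Unc5c*, another netrin receptor of the same family, had lower values under CR in the cornea. Its AL libraries held 158, 285, 218, 151 and 183 normalized counts, and its CR libraries held 114, 35.8, 56.8, 143 and 26.9. The ranges of the diets did not overlap, although AL 4 (151) and CR 4 (143) were close. The log2 change was −1.63 ± 0.40 (SE, 95% interval −2.49 to −0.77) with a limma adjusted p of 0.0616, which missed the threshold. With the share of genes at 0 reads in each library in the fit it was −0.85.

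*Unc5d* had few or no reads in most cornea CR libraries. It had 26.4, 32.8, 58.9, 6.19 and 41.2 normalized counts in AL, and 38.3, 0, 0, 3.07 and 0 in CR. Only CR 1 stood at the AL level, and 3 CR libraries had 0 reads. The log2 change of −3.34 ± 1.07 (SE, limma adjusted p = 0.122) exceeds the ratio of the means because it averages log2 values near 0. *Unc5a* stood at 537 ± 31.1 in AL and 522 ± 21.9 in CR (SD, n = 5 each), with a 95% interval of the log2 change from −0.28 to 0.20.

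In the conjunctiva no UNC5 receptor was called. *Unc5b* held 930.1, 606, 587 and 812 normalized counts in AL 1, 3, 4 and 5, and 882, 1020.4, 495, 989.7 and 1099 in CR 1 to CR 5. The diets overlapped, and CR 3 was the lowest library of all. The log2 change was 0.26 ± 0.22 (SE, 95% interval −0.21 to 0.74, limma adjusted p = 0.765). *Unc5c* averaged 127 ± 69.5 in AL (n = 4) and 67.9 ± 18.7 in CR (n = 5), a difference of −0.73 ± 0.38 in log2 (SE) with a limma adjusted p of 0.566. *Unc5a* averaged 490.2 ± 78.2 and 402 ± 70.6, a difference of −0.29 ± 0.17 (SE, limma adjusted p = 0.636).

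**Figure D2:**
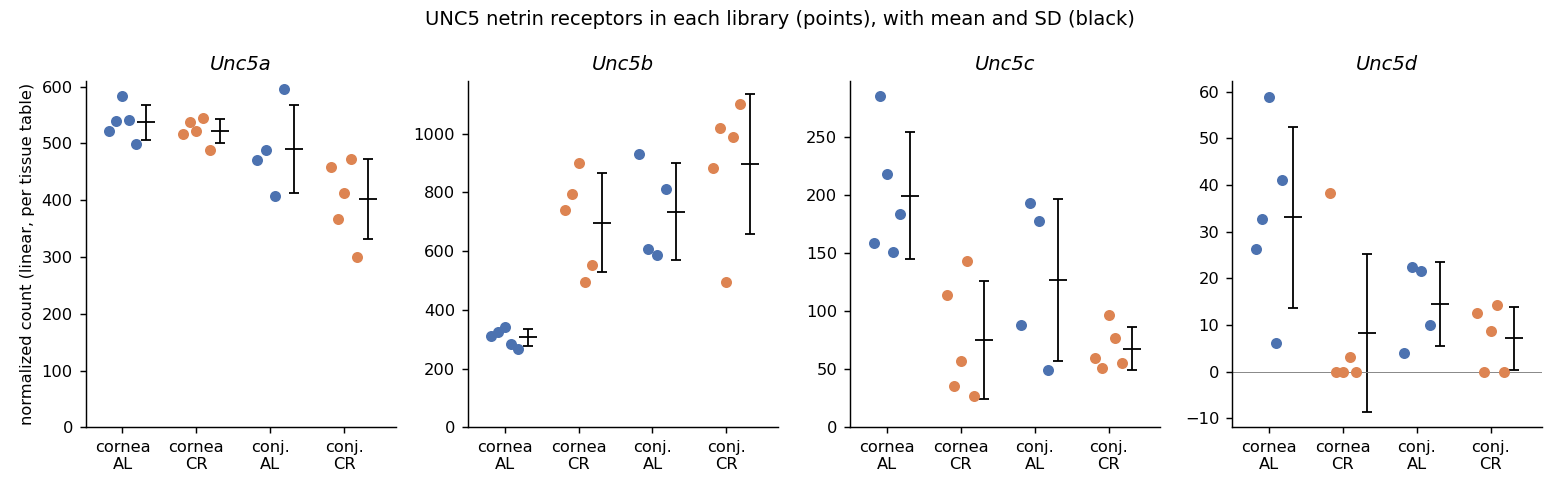
Normalized counts of the UNC5 receptors in each library (points, linear axes that differ between panels), with the mean and SD of each group in black, where the SD bar of *Unc5d* runs below 0. Tissues were scaled in separate tables, so points compare within a tissue. All 5 cornea CR libraries sit above all 5 AL libraries for *Unc5b* and below them for *Unc5c*.

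Whether the diet change itself differed between tissues was tested for 44 members measured in both. None passed an adjusted p under 0.05, which 0.0168% of 11929 genes did. An unadjusted p under 0.05 was held by 3 of the 44 members (*Unc5b*, *Robo1* and *Slit3*), beside 7.48% of these genes. For *Unc5b* the cornea change exceeded the conjunctiva change by 0.89 on the log2 scale (95% interval 0.32 to 1.45). The adjusted p was 0.389, from the difference of the 2 limma estimates over its standard error. *Robo1* and *Slit3*, a receptor and a ligand of one repulsive pair, differed by −1.08 (adjusted p = 0.585) and −2.25 (adjusted p = 0.642) by the same test on limma estimates. A difference between the tissues in the *Unc5b* change was thus not shown after adjustment.

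The makeup of the reads from UNC5 receptors in the cornea differed by diet without overlap for *Unc5b*. *Unc5b* gave 27.0% to 30.6% of the UNC5 reads in the AL libraries and 41.7% to 60.9% in the CR libraries. The mean share went from 28.5% ± 1.40 to 53.0% ± 7.37 (SD, n = 5 each). The share of *Unc5c* went from 18.3% ± 3.54 to 5.83% ± 4.16, and that of *Unc5a* from 50.1% ± 3.48 to 40.6% ± 5.002. In the conjunctiva *Unc5b* already held 53.3% ± 7.09 in AL (n = 4) and held 64.3% ± 10.2 in CR (n = 5), with overlapping ranges. These shares follow from the counts above and were not tested.

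**Figure D3:**
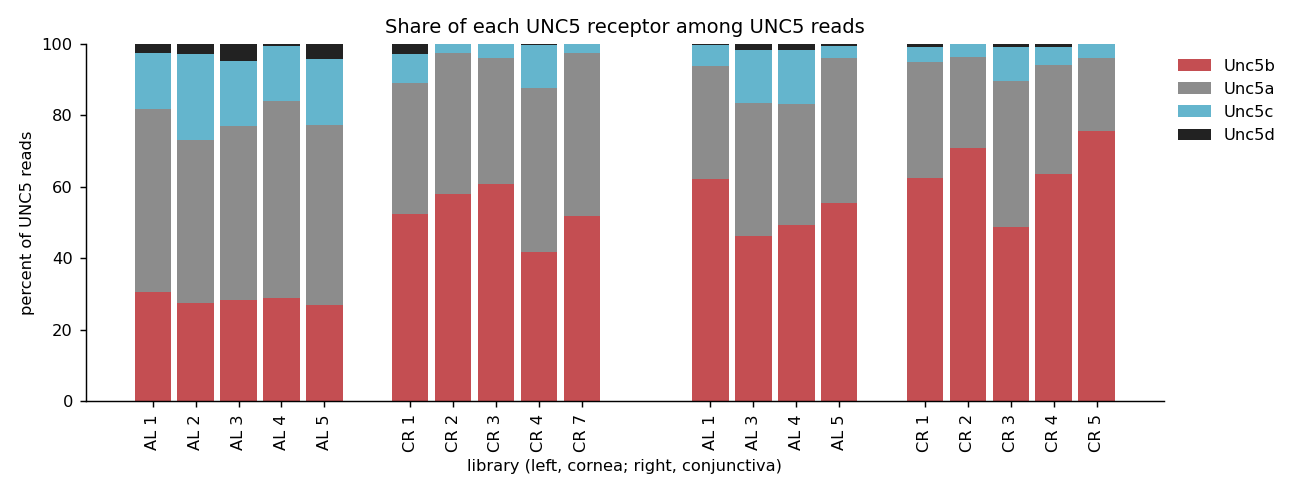
Percent of UNC5 reads from each receptor in each library, stacked to 100, with cornea libraries on the left and conjunctiva libraries on the right. The *Unc5b* part covers 27.0% to 30.6% in cornea AL and 41.7% to 60.9% in cornea CR, and from 46.3% to 75.6% in the conjunctiva.

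*Unc5b* (gene 107449) lies on the minus strand of chromosome 10 at 60762594 to 60831581, and *Unc5c* (gene 22253) on the plus strand of chromosome 3 at 141465564 to 141834924, in the RefSeq annotation of GRCm38.p6. *Gm19972* lies within *Unc5b* on its strand and *Gm15689* and *Gm43826* overlap *Unc5c* on either strand, and none shares an exon base with it in GENCODE M21. *Unc5a* shares 34 exon bases with *Hk3* on the opposite strand. The RefSeq promoter windows of the pair that separated by diet in the cornea are given here, as the 250 bases before the annotated start on the gene's strand.
Unc5b promoter, chr10:60831582-60831831, minus strand: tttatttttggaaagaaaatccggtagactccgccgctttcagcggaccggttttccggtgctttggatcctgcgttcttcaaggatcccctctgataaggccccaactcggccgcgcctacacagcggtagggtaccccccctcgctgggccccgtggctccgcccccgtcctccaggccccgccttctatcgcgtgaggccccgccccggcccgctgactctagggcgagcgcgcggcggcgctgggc
Unc5c promoter, chr3:141465314-141465563, plus strand: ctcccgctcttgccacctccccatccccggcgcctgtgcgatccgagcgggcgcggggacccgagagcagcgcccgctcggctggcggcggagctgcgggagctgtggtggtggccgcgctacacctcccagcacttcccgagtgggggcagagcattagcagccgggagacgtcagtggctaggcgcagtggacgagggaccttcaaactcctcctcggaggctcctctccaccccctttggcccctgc
They hold 66.8% and 71.2% G and C. Letters of clock elements were searched on both strands from 250 bases before to 50 bases after the start. Neither window, nor that of *Ephb6*, held the E-box CACGTG or the D-box TTANGTAA. Of 59 members with a window, 4 held the E-box (*Epha8*, *Robo2*, *Sema3e* and *Sema6d*) and 0 the D-box, beside 7.15% and 2.32% of 32851 promoters. No capitals are shown because no match was found, which says nothing of the factors that bind there.

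The netrin ligands of these receptors had few reads in the cornea. *Ntn1*, the netrin-1 gene, had 16.8 ± 11.3 normalized counts in AL and 19.5 ± 12.5 in CR (SD, n = 5 each). *Ntn3* had 24.9 ± 11.8 and 12.4 ± 13.9, and it had the most reads of the netrins in the cornea. In the conjunctiva *Ntn1* had 274 ± 79.8 in AL (n = 4) and 210.2 ± 61.9 in CR (n = 5), with CR 1 (318) apart from the other CR libraries. None of the netrins had an unadjusted p under 0.05 in either tissue. *Dcc*, the attractive netrin receptor, was below the threshold for testing in both tissues, and *Neo1*, its relative neogenin, stood in the cornea at 416 ± 57.4 and 453 ± 136.

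The Slit and Robo members gave no call in the cornea, although *Robo1* and *Slit3* had lower means under CR. *Robo1*, a receptor for Slits, had 84.7, 125, 88.4, 94.6 and 48.4 normalized counts in AL and 19.7, 35.8, 21.97, 32.7 and 71.5 in CR. CR 7 alone overlapped the AL range. The log2 change was −1.35 ± 0.36 (SE, limma adjusted p = 0.0680). *Slit3* averaged 32.6 ± 14.6 in AL and 8.42 ± 10.8 in CR, where 2 libraries had 0 reads (log2 change −2.67 ± 0.94, SE, limma adjusted p = 0.155). *Slit2*, with the most reads of the Slits in both tissues, averaged 40.6 ± 18.8 and 54.8 ± 64.2 in the cornea and 516 ± 93.2 and 392 ± 124 in the conjunctiva.

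In the conjunctiva *Robo1* held 176 ± 16.02 in AL (n = 4) and 154 ± 50.9 in CR (n = 5), and *Slit3* held 172 ± 50.7 and 131 ± 41.0. Of the fibroblast markers, 10 of 10 had lower estimates under CR there and 2 were called (*Col1a1* and *Col3a1*), and their summed level ran from 43012 to 64138 in AL and from 28379 to 54875 in CR. In these bulk samples, fewer cells of a type and less RNA per cell cannot be told apart. Their part in the Slit and Robo values was not tested.

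The neuropilins, co-receptors for class 3 semaphorins and for vascular growth factors, gave no call in either tissue. *Nrp1* averaged 141 ± 11.3 normalized counts in cornea AL and 93.7 ± 47.7 in CR (SD, n = 5 each), and CR 1 (169.8) lay above all AL libraries while the other CR libraries (47.7 to 106) lay below them. Its log2 change was −0.71 ± 0.28 (SE, limma adjusted p = 0.194). *Nrp2* was higher in means in both tissues, from 21.8 ± 12.1 to 47.3 ± 25.8 in the cornea (limma adjusted p = 0.264) and from 195 ± 53.5 to 271 ± 43.5 in the conjunctiva (limma adjusted p = 0.471). Its log2 changes were 1.06 ± 0.49 and 0.50 ± 0.22 (SE). The diets overlapped for both neuropilins in both tissues, and *Nrp1* averaged 776 ± 142 and 695 ± 254 in the conjunctiva.

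Among plexins, the semaphorin receptors, *Plxna2* averaged 419 ± 62.2 in cornea AL and 583 ± 139 in CR (log2 change 0.45 ± 0.17, SE, limma adjusted p = 0.170). *Plxnb2*, a receptor for class 4 semaphorins and the plexin with the most reads in both tissues, averaged 4949 ± 1061 and 6286 ± 1307 in the cornea (log2 change 0.34 ± 0.16, SE, limma adjusted p = 0.274) and 5223 ± 877 and 5675 ± 1271 in the conjunctiva. AL 4 (6779.8) was far above the other cornea AL libraries for *Plxnb2*. The other 4 plexins tested in the cornea and all 8 tested in the conjunctiva had unadjusted p above 0.05.

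In the cornea 5 semaphorins of class 3 and 7 of classes 4 to 7 were tested, and 0 had an unadjusted p under 0.05 by limma. *Sema4a*, a membrane semaphorin and the one of classes 4 to 7 with the most reads, averaged 2023 ± 162 in cornea AL and 2033 ± 484 in CR (95% interval of the log2 change −0.32 to 0.28). *Sema3d*, a secreted semaphorin and the one of class 3 with the most reads, averaged 258 ± 39.8 and 293 ± 84.8. In the conjunctiva, *Sema3d* went from 469 ± 63.7 to 591 ± 75.2, *Sema4a* from 1921 ± 263 to 1526 ± 222 and *Sema4d*, a ligand of plexin B1, from 1242 ± 186 to 971 ± 241 (n = 4 and 5). Their log2 changes were 0.33, −0.33 and −0.38, with limma adjusted p of 0.514, 0.491 and 0.523, and their diets overlapped.

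Ephrins and Eph receptors, the contact signals, gave no call. All ephrins tested, 4 of ephrin-A and 3 of ephrin-B in the cornea and 4 and 2 in the conjunctiva, had unadjusted p above 0.05. *Efna5* and *Efnb1* had the most reads of their subfamilies in the cornea, at 1235 ± 145 and 1164 ± 157 and at 1712 ± 364 and 2032 ± 398 in AL and CR. *Epha1* and *Epha4* were opposite in the cornea, from 1400 ± 137 to 1114 ± 233 (log2 change −0.35 ± 0.14, SE, limma adjusted p = 0.197) and from 2901 ± 562 to 3616 ± 511 (log2 change 0.33 ± 0.13, SE, limma adjusted p = 0.198). CR 7 was the lowest library for *Epha1* (780.1) and the highest for *Epha4* (4335). *Ephb3*, the EphB receptor with the most reads, averaged 1659 ± 183 and 1692 ± 375 in the cornea. In the conjunctiva *Epha4* averaged 3040 ± 554 and 3678 ± 1483, *Ephb3* 964 ± 157 and 1070 ± 316, *Efna5* 843 ± 134 and 899.9 ± 188 and *Efnb2* 958 ± 83.6 and 1084 ± 370, with overlapping diets.

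*Ephb6*, an Eph receptor whose kinase domain is inactive, was the member with separated diets in the conjunctiva. It had 121, 83.0, 103 and 114 normalized counts in AL 1, 3, 4 and 5, and 176, 150.4, 134, 179 and 163 in CR 1 to CR 5. All CR libraries lay above all AL libraries. The log2 change was 0.61 ± 0.22 (SE, 95% interval 0.15 to 1.07) with a limma adjusted p of 0.341, which did not pass. In the cornea it averaged 209 ± 61.5 in AL and 213 ± 53.0 in CR, with overlapping libraries.

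**Figure D4:**
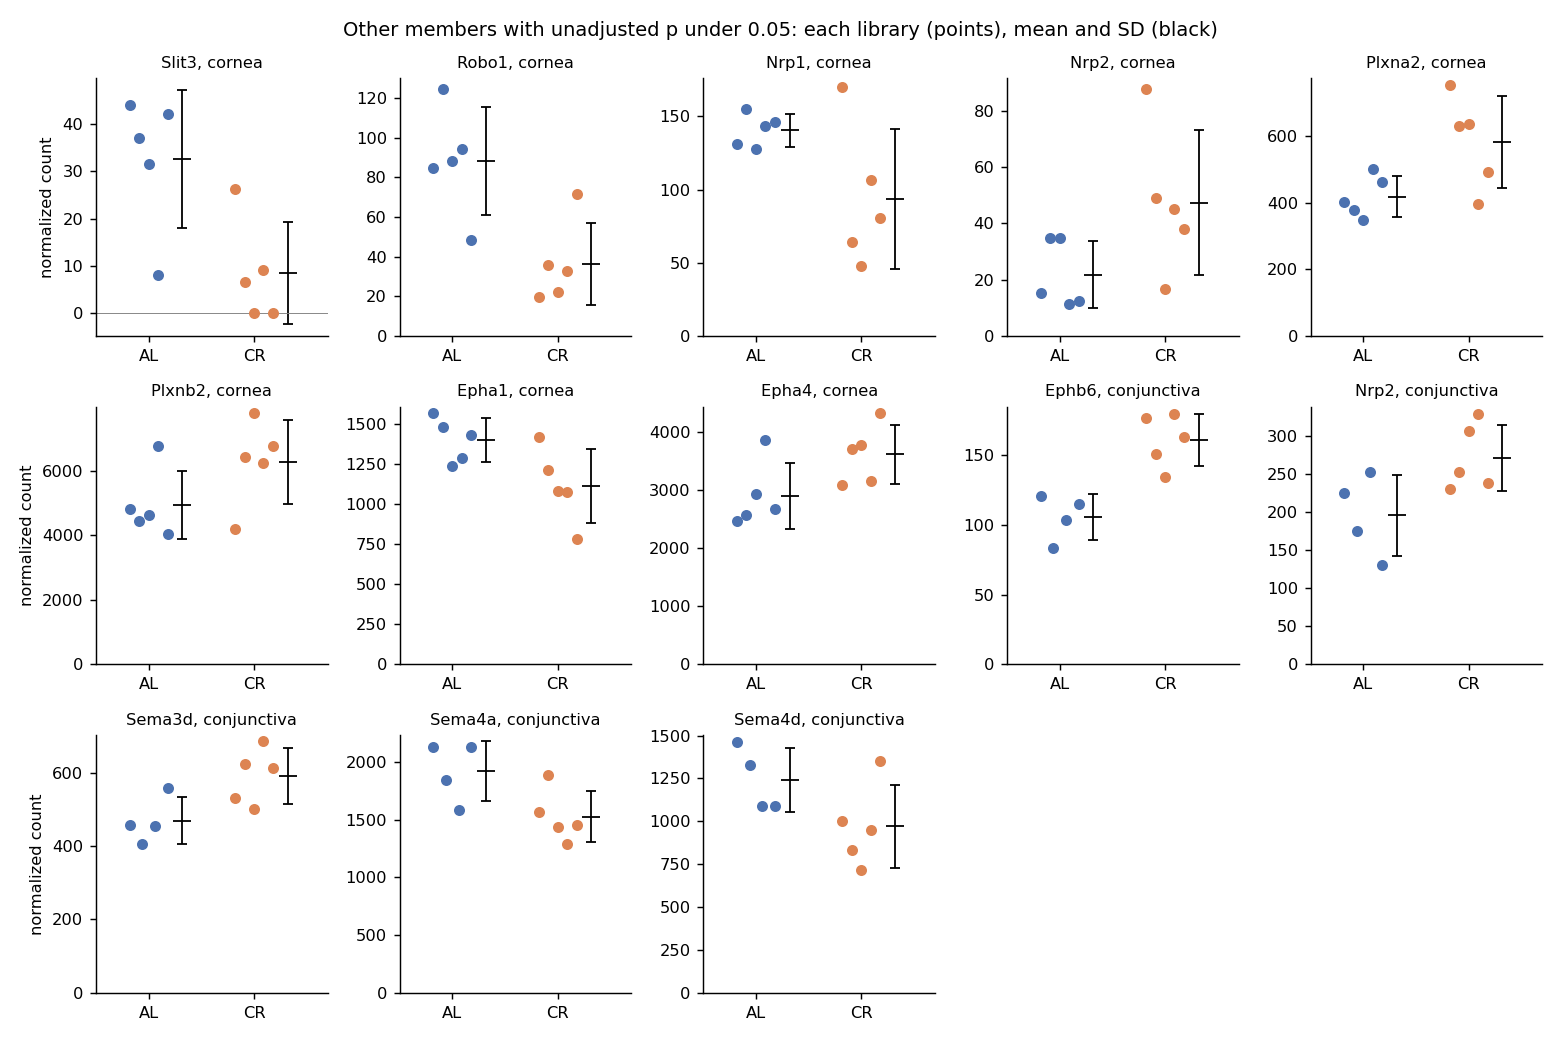
Normalized counts in each library (points, linear axes that differ between panels) with mean and SD in black, for the members other than the UNC5 receptors with an unadjusted p under 0.05 in the tissue named in each title. The diets overlap in every panel except *Ephb6* in the conjunctiva, where AL runs from 83.0 to 121 and CR from 134 to 179.

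Other axon guidance genes gave no call. Of 18 ligands and receptors outside these families (such as *Dcc*, *Neo1*, the Flrt genes and *L1cam*), 9 were tested in the cornea with 5 higher and 4 lower, and 12 in the conjunctiva with 3 higher and 9 lower. *Chl1*, an adhesion molecule that joins neuropilins, went from 3892 ± 281 to 2921 ± 730 in the cornea (limma adjusted p = 0.131). *Flrt2*, a ligand of UNC5 receptors, went from 2296 ± 341 to 3234 ± 668 in the conjunctiva (log2 change 0.48 ± 0.16, SE, limma adjusted p = 0.292) and from 274 ± 127 to 570 ± 258 in the cornea (limma adjusted p = 0.230).

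Of 45 genes that relay these signals inside the cell, 41 were tested in the cornea (18 higher, 23 lower) and 42 in the conjunctiva (19 higher, 23 lower), and 0 were called in either tissue by limma. Those with an unadjusted p under 0.01 numbered 2 of 41 in the cornea, where 6.57% of all genes tested had one, and 5 of 42 in the conjunctiva, where 3.27% had one. They are given as values. *Vav2*, a relay downstream of Eph receptors, was lower with no overlap in both tissues, from 254 ± 31.5 to 171 ± 27.1 in the cornea (limma adjusted p = 0.0912) and from 566 ± 42.4 to 309 ± 93.6 in the conjunctiva (limma adjusted p = 0.0714). Diets did not overlap either for *Dpysl2* in the cornea and for *Dpysl3*, *Mical1* and *Fes* in the conjunctiva. Over all genes tested, 3.97% in the cornea and 3.87% in the conjunctiva had no overlap. *Mical3*, of a family of actin oxidases, went from 226 ± 53.1 to 361 ± 84.7 in the cornea (limma adjusted p = 0.0776). In the conjunctiva the log2 changes were −0.53 for *Dpysl3*, −1.01 for *Mical1*, −0.65 for *Fes* and 0.89 for *Pak3*, with limma adjusted p of 0.135, 0.283, 0.304 and 0.257.

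The tissues differed in which members they held. Levels were set side by side as RPM, the reads of a gene per 1000000 counted reads, since each tissue was scaled in its own table, and no test was run because tissue and sampling cannot be told apart. Of 56 members tested in at least 1 tissue, every cornea library lay below every conjunctiva library for 17 (30.4%), beside 18.1% of 14278 genes, and above for 4 (7.14%), beside 4.2%. Of the 17, *Sema3e*, *Sema6a*, *Sema7a* and *Plxna4* were below the threshold for testing in the cornea and entered only through their conjunctiva level. The genes behind both shares were admitted in the same way, so these counts describe levels and test nothing. The 17 included secreted semaphorins, with *Sema3a* at 1.75 ± 1.59 RPM in the cornea and 30.0 ± 7.63 in the conjunctiva and *Sema3e* at 0.658 ± 0.915 and 22.1 ± 4.97 (SD, n = 10 and 9). They also included *Ntn1* (1.57 ± 0.974 and 19.6 ± 6.598), *Slit2* (4.09 ± 3.78 and 36.5 ± 10.1), *Nrp1* (10.1 ± 3.55 and 60.2 ± 18.4), *Nrp2*, *Plxnd1* and *Ephb2*.

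Endothelial markers summed to 0.622 to 7.204 RPM in cornea libraries and to 59.4 to 275 RPM in the conjunctiva, and 9 of the 10 were below the threshold for testing in the cornea. Fibroblast markers summed to 62.8 to 218 RPM in the cornea and to 2093 to 5441 RPM in the conjunctiva. Their part in the member levels was not tested. The 4 members higher in every cornea library were *Efnb1* (162 ± 35.7 and 76.2 ± 10.8 RPM), *Efna5* (104 ± 11.8 and 71.1 ± 9.73), *Efna1* (24.9 ± 3.01 and 12.8 ± 2.70) and *Plxna2* (43.4 ± 11.99 and 17.6 ± 6.50), of which 3 are ephrin ligands.

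**Figure D5:**
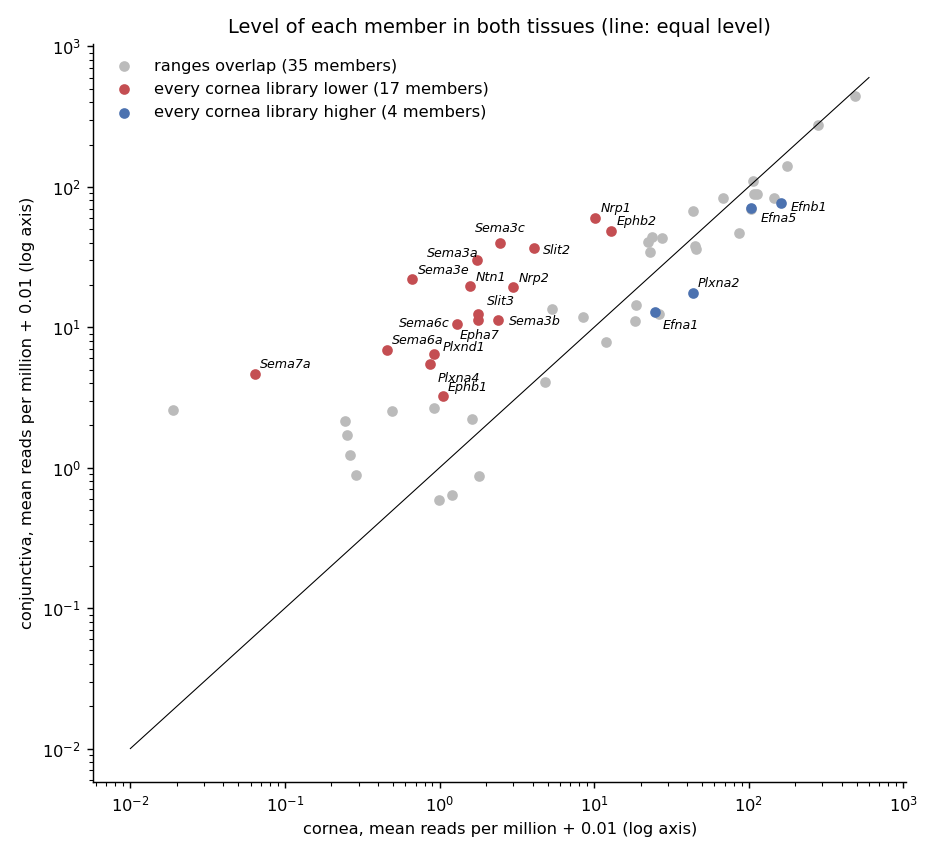
Mean RPM of 56 members in the cornea (x axis, 10 libraries) and the conjunctiva (y axis, 9 libraries), both on log axes after adding 0.01, with a line of equal level. The 17 members in red lie below the conjunctiva in every cornea library, the 4 in blue above it, and the other 35 overlap.

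*Unc5b* itself stood nearer to the conjunctiva level in the CR corneas. It had 26.4 ± 2.81 RPM in cornea AL and 60.7 ± 15.93 in cornea CR (SD, n = 5 each), and 62.2 ± 14.6 and 70.6 ± 15.96 in conjunctiva AL and CR (n = 4 and 5). Of 6 markers of conjunctival epithelium and goblet cells, 4 were tested in the cornea and all had higher means under CR, 0 of them called by limma, with a summed level of 25614 to 41989 in AL and 30629 to 63447 in CR. *Krt4* went from 3360 ± 1105 to 6628 ± 2617 (limma adjusted p = 0.137), and *Krt13* was at 27224 ± 6126 and 28747 ± 10925. *Agr2*, a goblet cell gene, was at 27.1 ± 19.5 and 51.1 ± 21.3 (limma adjusted p = 0.259). The untested goblet cell genes reached higher in AL instead. *Muc5ac* lay between 0 and 43.3 in AL and between 0 and 6.57 in CR. *Spdef*, a goblet cell factor, lay between 0 and 5.50 in AL and was 0 in every CR library. The part of conjunctival cells in the *Unc5b* change was not tested. Without CR 7, which had the most *Krt4*, the log2 change of *Unc5b* was 1.23 (limma adjusted p = 0.000504). The CR libraries that remained had 4582 to 7764 normalized counts of *Krt4*, against 2048 to 5103 in AL, so leaving out CR 7 does not test that part.

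Of the lacrimal gland markers, 6 were tested in the cornea, where 5 had lower estimates under CR and 1 was called lower (*Aqp5*, a water channel that corneal epithelium also makes). An unadjusted limma p under 0.01 was held by 5 of the 6, beside 6.57% of all genes tested, and their median log2 change was −5.82. The summed level of these markers was 30321 to 109390 in AL, highest in AL 1, and 24029 to 36369 in CR, where most of it was *Aqp5*. *Aqp5* averaged 44377 ± 8908 and 28919 ± 4792 (SD, n = 5 each, limma adjusted p = 0.0476), while *Scgb1b2* and *Obp1a*, which are tear gland secretory genes, had no overlap between diets. The part of tear gland RNA in the *Unc5b* change was not tested. Without AL 1 the log2 change of *Unc5b* was 1.16 (limma adjusted p = 0.00355). *Scgb1b2* and *Obp1a* had no overlap between diets without AL 1 either, so leaving it out does not test that part.

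Library properties and the other marker lists are given beside these values. Genes at 0 reads made up 40.5% ± 2.70 of all genes in AL and 44.4% ± 3.06 in CR (SD, n = 5 each, exact permutation p = 0.0714, two-sided), and 35.3% ± 1.90 and 37.1% ± 2.29 in the conjunctiva (exact permutation p = 0.246, n = 4 and 5). In the cornea AL 4 (45.2%) lay above CR 1 (39.9%) and CR 4 (42.7%). With 1 cornea library left out, the exact permutation p ran from 0.0317 (without AL 4 or without CR 1) to 0.143 (without CR 7). Macrophage markers had lower estimates under CR in 5 of 5 tested genes in the cornea, with *C1qa* called, and in 10 of 10 in the conjunctiva, with 0 called by limma. Schwann cell and nerve markers had 5 tested genes in the cornea, 3 higher and 2 lower, and 8 in the conjunctiva, 1 higher and 7 lower. Higher and lower estimates numbered 3 and 3 for corneal epithelium, 2 and 1 for keratocytes, 5 and 4 for fibroblasts, 0 and 1 for lymphatic endothelium and 1 and 0 for endothelium in the cornea, where 0 skeletal muscle markers were tested. In the conjunctiva they numbered 4 and 2 for corneal epithelium, 3 and 3 for conjunctival epithelium and goblet cells, 2 and 3 for keratocytes, 0 and 4 for lymphatic endothelium, 2 and 8 for endothelium, 2 and 3 for the lacrimal gland and 7 and 0 for skeletal muscle. Of the nerve markers and the markers in these counts, 0 were called by limma. The lists overlap, with *Aldh3a1* in those of corneal epithelium and keratocytes and *Lum* in those of keratocytes and fibroblasts. With the percent of genes at 0 in the fit, the log2 change of *Unc5b* was 1.197 (limma adjusted p = 0.00219).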

How the data were processed

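Gene-level RNA sequencing values of 10 cornea and 9 conjunctiva libraries were used. The authors sequenced single reads, trimmed with cutadapt, aligned with STAR to mm10 and counted with HTSeq, and the deposited values are log2 of the count over the DESeq2 size factor, plus 1, in 1 table per tissue. The labels give the build as GRCm39, and no tool version was stated. The kit is a stranded mRNA kit in the labels and an oligo(dT)-primed kit in the methods, so strand use is unknown and, were reads drawn from 3′ ends, levels would not scale with length.

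Values were turned back to normalized counts and whole reads (100% whole within 0.05). Diets were compared with limma 3.58.1 (statmod 1.5.0, R 4.3.3), trended and robust, on log2(normalized count + 1) for genes with a mean of at least 10, with Benjamini-Hochberg adjustment over all genes tested. Of 24557 features, 5 repeated symbols were left out. Fold changes are on this scale, where the added 1 understates low genes, while an average of log2 values can exceed the ratio of the means where libraries lie at 0. Between tissues, the log2 changes were subtracted and divided by the standard error of the difference (Satterthwaite degrees of freedom, libraries taken as independent although tissues may share mice). Reads lack molecular identifiers, so floors cover counting error only. The procedure was tested on simulated counts.

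Members and gene lists were chosen with earlier results of these data known. By rule, per-library values are given for *Unc5b*, called members and members with unadjusted p under 0.05 whose diets did not overlap, and means for other members with p under 0.05 and the most-read member of each family. Per-library values of *Unc5d* and *Robo1* were added after their values were seen. The marker list of each cell type and the lists of other axon guidance genes are given by counts. Promoters were matched by symbol in a RefSeq table of GRCm38.p6 (59 of 69 matched, not *Efnb3*, *Ntn1*, *Plxna1*, *Plxna4*, *Plxna4os1*, *Sema3b*, *Sema3f*, *Sema6a*, *Slit1* or *Unc5d*).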

Additional observations from a re-analysis of the deposited data

Results flagged for a closer look

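Among 23 members named above in 4 groups each (92 groups), 3 groups held a library far from the others by Dixon's ratio, where chance flags about 1 group in 20. *Ntn1* had 318 normalized counts in conjunctiva CR 1, against 168 to 199.8 in the other CR libraries. *Plxnb2* had 6779.8 in cornea AL 4, against 4059 to 4814 in the other AL libraries. *Unc5d* had 38.3 in cornea CR 1, against 0 to 3.07 in the other CR libraries.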

How the results depend on the processing

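*Unc5b* was called in the cornea under all 20 alternatives, with log2 changes of 1.05 to 1.27 and limma adjusted p from 4.3e-05 to 0.00559. Members called in the cornea numbered 2 with a pseudocount of 10, 2 with quantile normalization and 2 with voom on whole reads (*Unc5b* and *Unc5c* each time), 6 with array weights, 3 at an adjusted p under 0.1, and 1 to 4 with 1 library left out. In the conjunctiva 1 was called (*Slit2*) once the percent of genes at 0 reads entered the fit, and 0 in the other alternatives. That covariate also turned *Unc5b* in the conjunctiva to −0.026 (limma adjusted p = 0.982), and the cause was not tested. *Unc5c* in the cornea was called under 7 of 20 alternatives, with adjusted p from 0.00818 to 0.343. The same covariate moved other cornea values by over 1.5 times, namely *Unc5c* to −0.85, *Unc5d* to −1.15, *Slit3* to −0.85, *Nrp1* to −0.33, *Nrp2* to 1.75, *Epha1* to −0.14, *Epha4* to 0.046 and *Plxnb2* to 0.0012, and in the conjunctiva *Unc5c* to −0.32 and *Sema3d* to 0.21. Over 413 values of single genes, 396 kept their direction and side of the threshold, 16 passed it and 1 reversed. The difference of genes at 0 in the cornea, 3.84 percentage points, was 3.04 to 4.995 with 1 library left out.

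All genes called in the cornea, 150 in the report's fit, numbered 705 with array weights, 62 with the covariate, 283 at an adjusted p under 0.1, 536 without AL 4, 309 without CR 1 and 53 to 67 without AL 1, 2, 3 or 5 or CR 2 or 3. In the conjunctiva, 50 became 149 with array weights, 102 at an adjusted p under 0.1, 127 without CR 3, 76 without CR 5 and 26 to 32 without AL 1, 4 or 5 or CR 1 or 2. Members below the conjunctiva in every cornea library numbered 17 to 20 and those above 4 to 6 with a library left out, and 17 and 4 without the ribosomal precursor *Rn45s* in the denominator, alternatives added after the data were seen.

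Correlations of same-numbered deviations between diets were −0.30 to 0.29 for the cornea and −0.06 to 0.05 for the conjunctiva. Among the numbers shared by both diets, only cornea number 1 correlated best with its own number. Deviations from the means of so few libraries cannot settle whether the numbers pair the diets. With the number as a replicate block, 2 cornea members were called (*Unc5b* and *Robo1*) and 0 in the conjunctiva, over totals of 54 and 12 genes. No member passed the test of a difference between tissues in any alternative, including the difference per shared title (8 titles). A DESeq2 fit had been planned and was not run, although whole reads were recovered from the log2 values and were used for voom. *Unc5d* and *Slit3* rest on at most 54 and 41 reads in a cornea library, with 0 reads in 3 and 2 CR libraries.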
